A study of Homo sapiens with 8 samples.

Results

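Lung cancer lineage transcription factors are described here through 9 genes, *SOX2*, *TP63*, *NKX2-1*, *FOXA2*, *NEUROD1*, *INSM1*, *POU2F3*, *YAP1* and *REST*. The genes were chosen by name, and every probe that names them through the array's sequence identifier was used, which gave 1 probe per gene. They are 9 of the 22439 genes that could be named on the array. Their levels were read in the control channel of 4 lung cancer cell lines, and their log2 ratios under each of 3 treatments.

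Lung cancers are sorted by histology, and each class leans on its own transcription factors. *SOX2* and *TP63* are the factors of squamous and basal airway cells, *NKX2-1* and *FOXA2* those of the alveolar and airway epithelium, and *NEUROD1*, *INSM1* and *POU2F3* mark forms of small cell lung cancer. *YAP1* is the coactivator that the Hippo kinases hold out of the nucleus and that acts through the TEAD factors, and *REST* is the repressor that keeps neuronal genes silent in other cells. *NEUROD1*, *POU2F3* and *YAP1* are among the genes by which small cell lung cancers are often grouped.

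Each of 8 Agilent arrays compared treated cells, whose RNA carried Cy5 (red), with a control of the same line, whose RNA carried Cy3 (green). There was 1 array of EBC-1 and 1 of SK-MES-1, lung squamous cell carcinoma (LUSQ) lines transfected with *miR-150-3p*. There were 3 arrays of SBC-3, a small cell lung cancer line transfected with 3 different siRNAs against *DONSON*, and 3 of A549, a lung adenocarcinoma line in which *LOXL2* was edited with CRISPR/Cas9. The labels call the control of the transfected lines both mock and not transfected, and the control of A549 unedited. They name the edited samples A549-GE1, A549-GE2 and A549-GE3 and do not say whether these are clones or guides. No array had its dyes swapped, so a dye bias particular to a probe was not removed from any ratio.

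A level is given as the processed signal of the Cy3 channel (arbitrary units), from which the authors' scanner software had subtracted the background. A probe counts as detected where that software marked it well above background. Folds between lines were taken after quantile normalization of the mean log2 intensity between arrays. The labels do not say whether the 3 control channels of SBC-3, or those of A549, are separate RNAs, so the SD given for these lines may be that of repeated hybridization alone. Between the control channels of 1 line, the SD of the log2 difference over probes with a log2 intensity above 8 was 0.11 to 0.13 in SBC-3 and 0.08 to 0.09 in A549. Between the treated channels it was 0.36 to 0.49 in SBC-3 and 0.13 to 0.18 in A549. EBC-1 and SK-MES-1 have 1 array each and hence no spread. In RNA from whole cultures, fewer cells that express a gene and less RNA of it per cell cannot be told apart.

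The targeted genes were read first, as a check of the labels. *DONSON*, a replication fork protein, had log2 ratios of -2.15, -1.79 and -2.11 in the SBC-3 arrays, and its mean of -2.02 passed the limma test (adjusted p = 0.00315). *LOXL2*, a lysyl oxidase, had log2 ratios of -2.49, -2.67 and -2.59 in the A549 arrays, with a mean of -2.58 (limma adjusted p = 0.00194). Both genes were lower in 3 of 3 arrays of the treatment that names them.

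The defining markers of the labelled tumour types were only partly present. Of 11 squamous markers, 4 were detected in SK-MES-1 and 3 in EBC-1, against 1 on every array of SBC-3 and 0 in A549. The squamous keratins *KRT5* and *KRT6A* and the desmosomal cadherin *DSG3* were at background in all 4 lines. Of 10 neuroendocrine markers, 4 were detected on every array of SBC-3, against 6 in A549, 3 in SK-MES-1 and 1 in EBC-1. SBC-3 had *CHGA*, *CHGB*, *SYP* and *SNAP25*, at mean Cy3 signals of 79.2, 57.9, 145 and 946. The dimmest detected signals on its arrays were 42.1, 38.2 and 37.0. A549 had *CHGA*, *CHGB* and *SNAP25* at 274, 51.7 and 3019. SBC-3 lacked *NCAM1*, *UCHL1*, *GRP*, *SCG2*, *SCG3* and *DDC*. Of 11 alveolar and adenocarcinoma markers, 5 were detected on every array of A549, and the surfactant genes *SFTPA1*, *SFTPB* and *SFTPD* on none, while *SFTPC* was detected on 2 of 3. In each LUSQ line 6 of the 11 were detected. Of 6 epithelial markers, 6 were detected in EBC-1, 5 in A549, 4 in SK-MES-1 and 3 in SBC-3, where *EPCAM* and *CDH1* were at background. Of all probe spots, the control channel detected 41.1% in EBC-1, 46.4% in SK-MES-1, 42.2% to 43.0% in SBC-3 and 45.2% to 45.5% in A549. A LUSQ line needed detection on its 1 array, SBC-3 and A549 on all 3, so these counts are not alike between lines. In A549, as in each LUSQ line, 5 of the 11 alveolar markers were detected on no array. Squamous counts were highest in the LUSQ lines, and neuroendocrine and alveolar counts were not highest in the lines labelled for them. The labels are used below only as names.

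*SOX2*, the stem and squamous factor, was detected on all 8 arrays. Its Cy3 signal was 88.2 in SK-MES-1 and 197 in EBC-1. It was 18900.5, 17089 and 17958 on the SBC-3 arrays and 588, 599 and 592 on the A549 arrays. The small cell line was thus far above the others, and both lines labelled as squamous were the lowest, with no overlap between any lines. After normalization, SBC-3 exceeded SK-MES-1 by 221-fold, EBC-1 by 103-fold and A549 by 34.6-fold. A549 in turn exceeded EBC-1 by 2.97-fold and SK-MES-1 by 6.40-fold, and EBC-1 exceeded SK-MES-1 by 2.15-fold. Differences were smaller with normexp and loess, at log2 5.93, 5.38 and 4.62 for SBC-3 over SK-MES-1, EBC-1 and A549 and 1.31 for A549 over SK-MES-1, and A549 over EBC-1 (log2 0.76) and EBC-1 over SK-MES-1 (log2 0.55) fell short of 2-fold.

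*TP63*, the basal cell factor, was near background everywhere. Its Cy3 signal was 25.3 in EBC-1, where it was not detected, and 39.1 in SK-MES-1. It was 103, 79.6 and 97.2 in SBC-3 and 32.8, 18.8 and 22.2 in A549, where 1 of 3 arrays detected it. The highest level therefore lay in the small cell line, above every other array. SBC-3 exceeded SK-MES-1 by 2.19-fold, A549 by at least 2.79-fold and EBC-1 by at least 2.09-fold. A bound of this kind raises a signal without detection to the dimmest that the array still detected. SK-MES-1 exceeded A549 by at least 1.27-fold. SBC-3 was short of 2-fold over each other line with normexp and loess, at log2 0.19 (SK-MES-1), 0.30 (A549) and 0.30 (EBC-1).

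*NKX2-1*, the thyroid and lung factor used to mark adenocarcinoma, was detected in Cy3 on 1 array only, of SBC-3. Its signals there were 39.1, 48.8 and 37.3, against 4.99, 5.15 and 5.19 in A549, 5.51 in SK-MES-1 and 8.54 in EBC-1. The adenocarcinoma line was thus at background for the adenocarcinoma factor. With detection on 1 of 3 arrays of SBC-3, no fold is given.

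*FOXA2*, a forkhead factor that opens chromatin in endoderm, was lowest in SBC-3, with the other lines in the same order as for *SOX2*. Its Cy3 signal was 2420 in EBC-1, 1646 in SK-MES-1, and 4599, 4495 and 4842 in A549. In SBC-3 it was 8.68, 9.07 and 8.72 and never detected. The line with the highest *SOX2* was therefore the only 1 of the 4 without detected *FOXA2*. SBC-3 was exceeded by at least 121-fold in A549, 60.3-fold in EBC-1 and 46.8-fold in SK-MES-1, bounds that were log2 3.78, 2.84 and 2.51 with normexp and loess. A549 exceeded SK-MES-1 by 2.59-fold and EBC-1 by 2.01-fold, and the last fell just short of 2-fold under 75th percentile scaling (log2 -0.95) and with normexp and loess (log2 -0.94).

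*NEUROD1*, the neurogenic helix-loop-helix factor, was detected in SBC-3 alone, with Cy3 signals of 444, 370.1 and 423. It gave 10.7 in EBC-1, 6.77 in SK-MES-1 and 7.01, 8.17 and 6.71 in A549, all at background. SBC-3 exceeded EBC-1 by at least 9.61-fold, A549 by at least 13.8-fold and SK-MES-1 by at least 14.8-fold. These bounds were near 2-fold with normexp and loess, at log2 0.96, 0.995 and 1.02, the first 2 short of it. The members for other neuroendocrine and tuft-like tumours were not seen. *INSM1*, the zinc finger repressor of neuroendocrine cells, was at 6.58 to 10.5 and *POU2F3*, the tuft cell factor, at 6.69 to 23.4, and neither was detected in either channel of any array.

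*YAP1* was detected on all 8 arrays, by a probe with 10 spots, of which those marked as outliers were left out. Its Cy3 signal was 1394 in EBC-1, 958 in SK-MES-1, 4871, 4475 and 4648 in SBC-3, and 1428, 1396 and 1506 in A549. SBC-3 was above the others without overlap, and it held *NEUROD1* and *YAP1* together. After normalization SBC-3 exceeded SK-MES-1 by 5.21-fold, EBC-1 by 4.08-fold and A549 by 3.78-fold. A549 and EBC-1 differed by 1.08-fold, and the EBC-1 signal lay only just under the lowest of A549.

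*REST* varied least among the detected members. Its Cy3 signal was 204 in EBC-1, 245 in SK-MES-1, 271, 242 and 249 in SBC-3, and 275, 272 and 295 in A549. The signals of SK-MES-1 and SBC-3 overlapped, and those of A549 lay just above them. The largest difference between lines was 1.38-fold, of A549 over EBC-1.

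**Figure D1:**
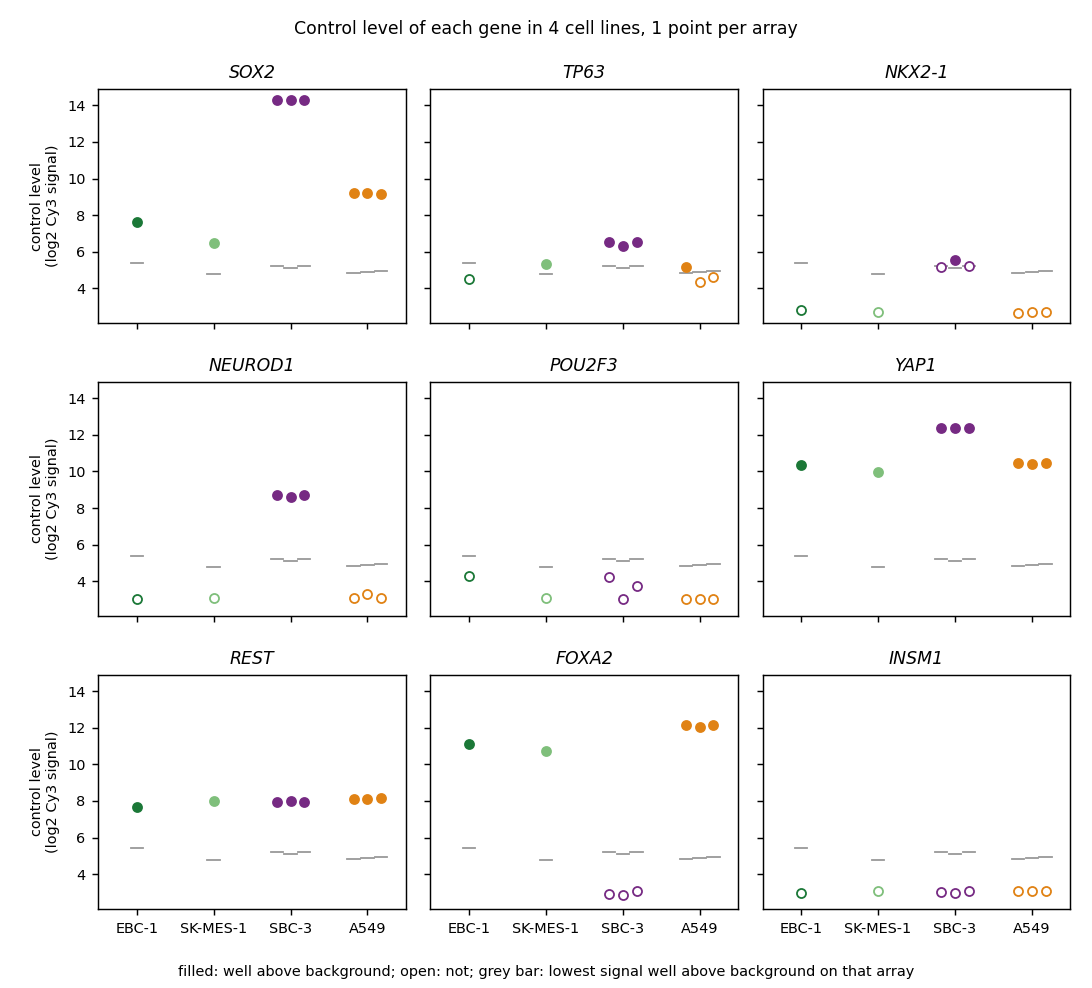
Normalized control level (log2 Cy3 signal) of the 9 members on each of the 8 arrays, by cell line, with filled points where the probe was well above background and a grey bar at the dimmest signal still detected on that array. *SOX2*, *NEUROD1* and *YAP1* are highest in SBC-3, where *FOXA2* is at background.

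Between lines, a member counted as different when its level differed by more than 2-fold either way, bounds included. EBC-1 and SK-MES-1 differed in 1 of 5 members, *SOX2* (not so with normexp and loess), against 30.3% of 27010 probes. EBC-1 and SBC-3 differed in 5 of 7, against 39.6% of 27118 probes. SK-MES-1 and SBC-3 differed in 5 of 7, against 38.7% of 28831, and SBC-3 and A549 in 5 of 7, against 33.3% of 28891. In each of these 3 pairs the members that differed were *SOX2*, *TP63*, *FOXA2*, *NEUROD1* and *YAP1*. EBC-1 and A549 differed in 2 of 5, against 32.9% of 27724, and SK-MES-1 and A549 in 2 of 5, against 28.3% of 28706, in both pairs *SOX2* and *FOXA2*. A member at background in both lines was left out of a pair, and so the members counted are those detected somewhere. A member whose bound gave no difference was counted as not past 2-fold. These were *NKX2-1* between EBC-1 and SBC-3, and *TP63* between EBC-1 and both SK-MES-1 and A549.

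The genes whose levels ran most like a member's were found over the 16 channel values of the 8 arrays, which come from 4 lines and share arrays. For *SOX2* they were *ATP7B* (Pearson r = 0.992), *RBM33-DT* (0.989) and *ZBED3* (0.985), of 11270 candidate genes detected in the same lines. For *YAP1* they were *DRAM2* (0.990), *NCKAP5L* (0.989) and *PGF* (0.988). With 4 lines, many probes can follow any such order.

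Of 19 other lineage factors on the array, 10 were detected on every array of SBC-3, 12 in A549, 9 in SK-MES-1 and 10 in EBC-1. Those named here had wide ranges. *CEBPA*, a bZIP factor of alveolar and myeloid cells, had a mean Cy3 signal of 8574 in SBC-3, 565 in A549 and 126 in EBC-1, and was undetected in SK-MES-1. *NFIB*, a nuclear factor amplified in some small cell tumours, exceeded EBC-1 by 28.4-fold in SBC-3. *ELF3*, an epithelial ETS factor, was 26.3-fold higher in A549 than in SBC-3, with a signal of 147 in SBC-3 and 174 in SK-MES-1.

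Of 16 genes known as *YAP1* targets, 10 were detected on every array of SBC-3, against 14 in EBC-1, 15 in SK-MES-1 and 15 in A549. The others were detected on no array of the line. Of all probes detected in either line of a pair, 33.3% to 39.6% differed past 2-fold either way between SBC-3 and another line. Several targets with wide ranges, but not all, were lowest in SBC-3, where *YAP1* was highest. *IGFBP3*, which binds insulin-like growth factors, had a Cy3 signal of 7816 in EBC-1, 2299 in SK-MES-1 and 2630 in A549 (means over arrays) and 8.24 in SBC-3, at least 68.5-fold under A549. *DKK1*, a secreted Wnt inhibitor, was at 6469, 920, 5873 and 9.27 in the same order, at least 153-fold under A549. *NT5E*, which makes adenosine outside the cell, was at 4341, 3621, 622 and 9.45. *AXL*, a receptor kinase, was detected in SBC-3 and was 20.5-fold higher in SK-MES-1. *F3*, *MYOF* and *CCN1* were lowest in SBC-3 as well, *F3* by little, at 133 against 153 in A549. Not all targets were. *CCN2*, with a wider range than *CCN1*, was lowest in EBC-1 (150), and *ANKRD1* was at background in both EBC-1 and SBC-3. *CCN2*, *PTPN14* and *ARHGEF17* had signals of 190, 1023 and 2528 in SBC-3 against 171, 896 and 1603 in A549. Of the 16 upstream and partner genes of the pathway, 14 were detected in SBC-3, 14 in A549, 14 in SK-MES-1 and 13 in EBC-1. *WWTR1*, the paralogue of *YAP1*, had the widest range among them, 8.94-fold lower in SBC-3 than in EBC-1, and *TEAD1* was 5.12-fold lower in SBC-3 than in A549.

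**Figure D2:**
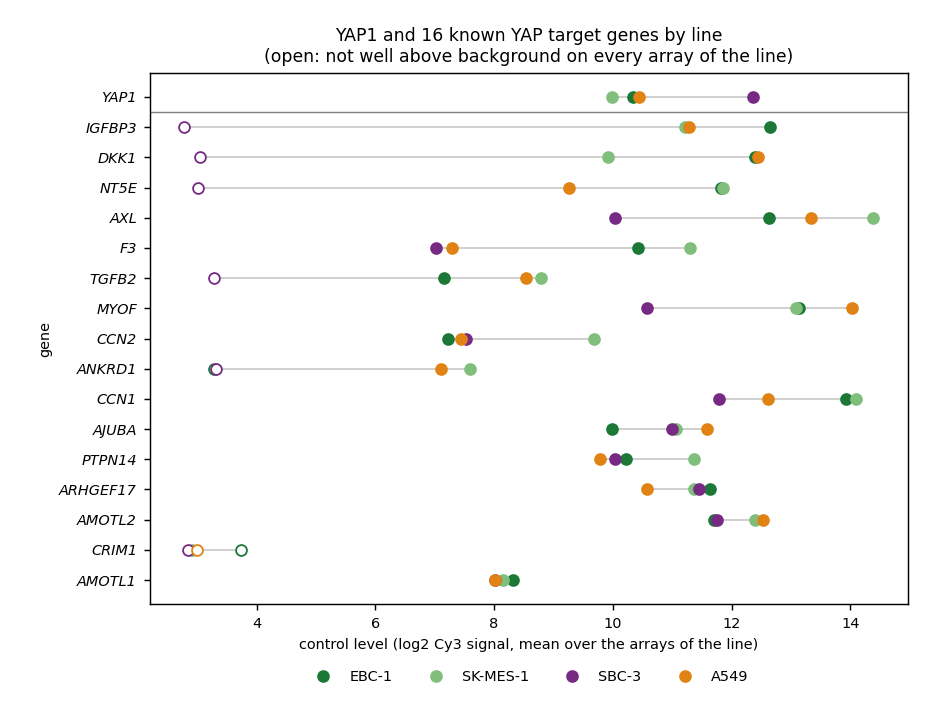
Normalized control level (log2 Cy3 signal, mean over the arrays of a line) of *YAP1* and of 16 known target genes, 1 point per line, open where the probe was not well above background on every array of the line. In SBC-3, where *YAP1* is highest, *IGFBP3*, *DKK1*, *NT5E* and *TGFB2* are at background.

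Promoters of *YAP1* and of 3 target genes are printed as examples that hold the motif marked below. The 3 targets also differed between lines or under *LOXL2* editing. *IGFBP3* and *NT5E* did so too, but had no match and are not printed. The sequences are from RefSeq (GRCh38.p14), 300 bases each, 5′ to 3′ on the gene's strand. The promoter of *YAP1* is at chr11:102110197-102110496 (plus strand), that of *ANKRD1* at chr10:90921038-90921337 (minus), that of *TGFB2* at chr1:218345086-218345385 (plus) and that of *DKK1* at chr10:52314031-52314330 (plus). Capitals mark GGAATG, the letters that TEAD factors bind, or its reverse complement CATTCC.
YAP1: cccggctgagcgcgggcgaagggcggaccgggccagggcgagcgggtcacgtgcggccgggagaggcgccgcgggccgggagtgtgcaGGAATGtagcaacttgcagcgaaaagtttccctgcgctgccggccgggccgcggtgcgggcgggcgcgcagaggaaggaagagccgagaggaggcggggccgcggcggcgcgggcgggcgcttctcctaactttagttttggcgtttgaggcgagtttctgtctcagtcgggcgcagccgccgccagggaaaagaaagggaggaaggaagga
ANKRD1: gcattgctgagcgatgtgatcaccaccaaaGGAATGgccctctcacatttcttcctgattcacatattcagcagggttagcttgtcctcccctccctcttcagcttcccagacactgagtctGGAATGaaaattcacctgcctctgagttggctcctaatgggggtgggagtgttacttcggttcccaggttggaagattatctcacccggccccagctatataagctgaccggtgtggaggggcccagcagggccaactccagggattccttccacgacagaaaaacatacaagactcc
TGFB2: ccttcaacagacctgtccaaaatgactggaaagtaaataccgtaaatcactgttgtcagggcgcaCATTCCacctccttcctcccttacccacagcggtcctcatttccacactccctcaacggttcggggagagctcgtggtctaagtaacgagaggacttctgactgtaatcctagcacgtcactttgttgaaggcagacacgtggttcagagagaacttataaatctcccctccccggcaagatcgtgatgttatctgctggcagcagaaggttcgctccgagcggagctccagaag
DKK1: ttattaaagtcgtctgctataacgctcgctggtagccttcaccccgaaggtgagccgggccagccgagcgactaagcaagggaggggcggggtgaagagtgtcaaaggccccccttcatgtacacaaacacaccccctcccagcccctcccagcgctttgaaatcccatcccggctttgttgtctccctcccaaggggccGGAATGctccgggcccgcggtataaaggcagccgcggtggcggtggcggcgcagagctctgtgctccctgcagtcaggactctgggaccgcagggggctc
The motif was searched on both strands. It was present in 14% of 35116 promoters of this length and in 1 or more promoters of 16.7% of 27305 genes. Among the target genes, 8 of the 13 in the table (61.5%) had it. There were 3 matches in *CCN2*, 2 in *ANKRD1*, 1 each in *TGFB2* and *DKK1*, and 0 in *IGFBP3* and *NT5E*. Of the 9 members, 6 were in the table and 2 had it, *YAP1* and *REST*. *POU2F3*, *FOXA2* and *INSM1* were not in the table.

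Of 11 genes in the list of *REST* corepressors and regulators, 10 were detected in each line, and the neuronal splicing factor *SRRM4* in none. *RCOR2*, a corepressor scaffold, was 59.0-fold higher in SBC-3 than in SK-MES-1, the widest range among them. Of 16 neuronal genes that *REST* represses, 7 were detected on every array of SBC-3, 7 in A549, 5 in SK-MES-1 and 6 in EBC-1. *SNAP25*, a synaptic vesicle fusion protein, was at 58.2 in EBC-1, 175 in SK-MES-1, 946 in SBC-3 and 3019 in A549. *BDNF*, a neurotrophin, was highest in A549 too, 10.5-fold above SBC-3. *VGF*, a neuropeptide precursor, was highest in SBC-3, 12.7-fold above SK-MES-1.

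The treatments were compared with limma, in 1 model of every array on which a probe had a ratio, with each treatment's mean log2 ratio tested against 0 and adjusted over all probes. Since the controls may each be a single RNA, these p-values cover the spread between the samples given and no more. Under *LOXL2* editing in A549, limma called 0 of 5 tested members, against 12.2% of 29737 probes (3619). At an unadjusted p under 0.05 there were 2 members, *SOX2* and *REST*, against 29.2% of the probes. *NKX2-1*, *NEUROD1*, *POU2F3* and *INSM1* were at background in both channels and had no ratio.

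The log2 ratio of *SOX2* in the edited cells was 0.45, 1.25 and 1.48. It was above 0 in 3 of 3 arrays, with A549-GE1 the lowest by far, and its mean of 1.06 ± 0.54 (SD) missed the limma threshold (adjusted p = 0.109). *REST* had log2 ratios of 0.32, 0.30 and 0.24, close to each other and above 0 in 3 of 3, with a mean of 0.29 (limma adjusted p = 0.111). *TP63* was below 0 in 3 of 3, at -0.53, -0.16 and -0.47, from signals near background (limma adjusted p = 0.251). *YAP1* had a mean of -0.13 (limma adjusted p = 0.568) and *FOXA2* of -0.09 (limma adjusted p = 0.741). The first was below 0 in 3 of 3 arrays and the second in 1 of 3.

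Among the 10 tested neuronal genes that *REST* represses, limma called 3 higher and 0 lower, with a median log2 ratio of 0.23, against 2071 higher and 1548 lower of 29737 probes and a median of 0.04. *SNAP25* had log2 ratios of 1.85, 2.03 and 1.97, and its mean of 1.95 passed the test (limma adjusted p = 0.000158) and all 11 alternatives tried. *CELSR3*, a neuronal cadherin, rose by a mean of 0.66 on the log2 scale, higher in 3 of 3 arrays (limma adjusted p = 0.0112), and with any 1 array left out its adjusted p missed the threshold, at 0.0531 to 0.0819, as it did with the other treatments subtracted (mean 0.40, 0.117). Of 10 tested *REST* corepressors and regulators, limma called 0, with 1 at an unadjusted p under 0.05.

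Among 15 tested *YAP1* targets, limma called 2 higher and 3 lower, with a median log2 ratio of 0.01. Over all probes it called 2071 higher and 1548 lower of 29737, with a median of 0.04. *ANKRD1*, a nuclear ankyrin protein, had log2 ratios of -2.93, -3.06 and -3.35 and a mean of -3.11 (limma adjusted p = 0.00882). Its signal was 121, 129 and 146 in the control and 15.9, 15.5 and 14.3 in the edited cells, where it was at background, so the size of these ratios is uncertain. The mean was -0.53 with normexp and loess and was called too. *NT5E* had -1.88, -1.52 and -1.07, a mean of -1.49 (limma adjusted p = 0.015). The 2 that rose were *TGFB2*, a growth factor, at 1.45, 0.93 and 0.92 (mean 1.10, limma adjusted p = 0.0119), and *IGFBP3* at 0.40, 1.19 and 0.95 (mean 0.85, limma adjusted p = 0.0318). The targets thus moved in both directions, each in 3 of 3 arrays. *F3*, tissue factor, was the other lower gene and was named after its values were seen, at a mean of -0.48. With any 1 array left out, *ANKRD1*, *TGFB2* and *F3* missed the threshold, at limma adjusted p of up to 0.0598, 0.0648 and 0.224, and *F3* missed it with normexp and loess (0.173). *NT5E* missed it without A549-GE1 (0.0823) or A549-GE2 (0.0899), and *IGFBP3* without A549-GE2 (0.156) or A549-GE3 (0.152). Of 14 pathway genes, 2 were called by limma, both lower, against 12.2% of all probes. They were the kinase *STK3* (mean -0.61) and the kinase activator *MOB1A* (mean -0.62). Each missed the threshold with any 1 array left out, at limma adjusted p of up to 0.104 and 0.0684. *MOB1A* also missed it with the other treatments subtracted (0.0895).

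Epithelial markers were called beside them. Of 5 tested epithelial markers, limma called 4 lower and 1 higher, against 1548 lower and 2071 higher of 29737 probes. *EPCAM*, a surface adhesion protein, had log2 ratios of -3.11, -2.27 and -1.90 (mean -2.43, limma adjusted p = 0.00547) and passed all 10 alternatives tried, at means of -2.69 to -1.12. *KRT19* had -1.42, -1.50 and -1.68 (mean -1.54, limma adjusted p = 0.00165), and was below 0 on all 8 arrays. With the other treatments subtracted it missed the threshold (mean -0.59, adjusted p = 0.0813). *CDH1*, the cadherin of epithelial junctions, went up, at 0.97, 1.61 and 1.51 (mean 1.36, limma adjusted p = 0.0151). *KRT18* fell by 0.73 and *KRT8*, the remaining 1 and named after its values were seen, by 0.57. The part of an epithelial change in the ratios of the members was not tested. *CDH1* missed the threshold without A549-GE2 (limma adjusted p = 0.0915) or A549-GE3 (0.0887), *KRT18* without A549-GE1 (0.0672) or A549-GE2 (0.0632), and *KRT8* without any 1 array (up to 0.193). *KRT18* and *KRT8* missed it with the other treatments subtracted as well (0.0586 and 0.154). Of 14 other lineage factors, limma called 2, both lower, against 12.2% of all probes. They were *FOXA1*, at -1.76, -1.77 and -1.26 (mean -1.60, limma adjusted p = 0.0112), and *FOXA3*, at -0.69, -1.24 and -0.49 (mean -0.81, limma adjusted p = 0.0369), both forkhead factors. Over 10 alternatives the mean of *FOXA1* ran from -1.77 to -0.67 and that of *FOXA3* from -0.97 to -0.098. *FOXA1* missed the threshold without A549-GE1 (0.0716) or A549-GE2 (0.0744), and *FOXA3* without any 1 array (up to 0.181) and with normexp and loess (0.0901). *FOXA2*, their relative, did not pass in any of 10 alternatives.

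**Figure D3:**
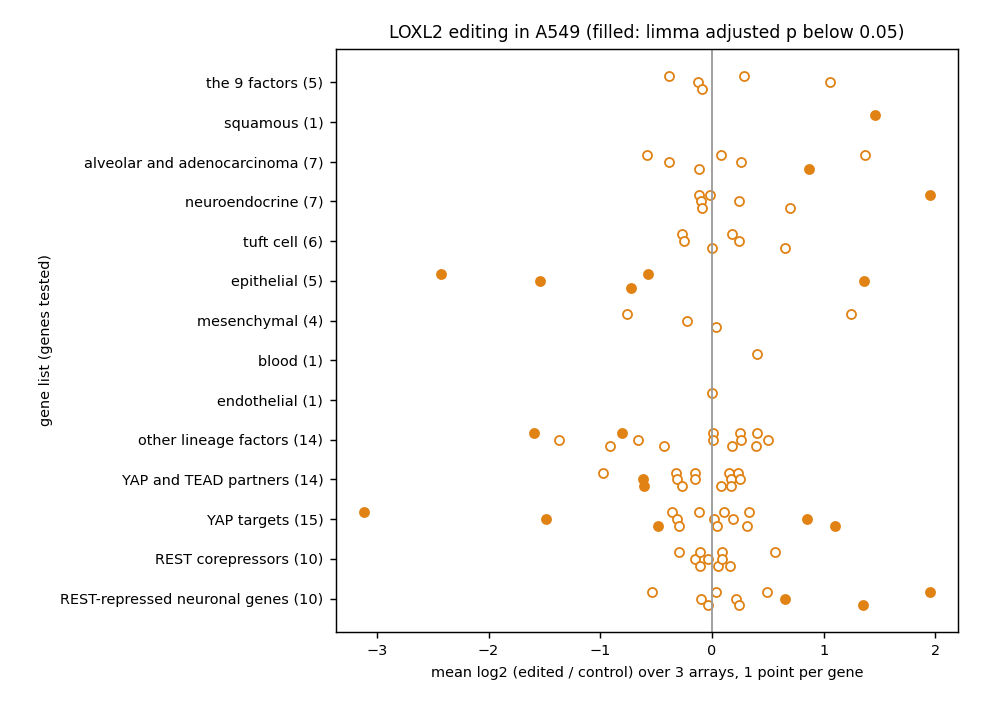
Mean log2 ratio of edited over control A549 over 3 arrays (horizontal axis) for every tested gene of each list, 1 point per gene, filled where limma called it. The farthest called points below and above 0 are *ANKRD1* among the *YAP1* targets (-3.11, at background in the edited cells) and *SNAP25* among the neuronal genes (1.95). All 5 tested members are open.

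Of the squamous markers 1 was tested, the ubiquitin ligase *TRIM29*, and limma called it higher (adjusted p = 0.0273). Its control was undetected on all 3 arrays, so the size of the rise is uncertain. *NAPSA*, an alveolar protease, was the 1 called of 7 alveolar markers, with a mean of 0.87. Without A549-GE1 or A549-GE2, *TRIM29* missed the limma threshold (adjusted p = 0.121 and 0.142), as it did with normexp and loess (0.0643), and as did *NAPSA* without any 1 array (up to 0.0732). Among 7 neuroendocrine markers *SNAP25* was the 1 called, against 12.2% of all probes. In the tuft cell, mesenchymal, blood and endothelial lists, limma called 0 of 6, 0 of 4, 0 of 1 and 0 of 1, with 1, 2, 1 and 0 at an unadjusted p under 0.05.

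Under the *DONSON* siRNAs in SBC-3, limma called 0 of 6 tested members, against 6.05% of 26382 probes (1597). At an unadjusted p under 0.05 there were 2 members, *NEUROD1* and *TP63*, against 25.9% of the probes. *FOXA2*, *POU2F3* and *INSM1* were at background in both channels.

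*NEUROD1* had log2 ratios of -0.29, -0.75 and -0.53. It was below 0 with each of the 3 siRNAs, with a mean of -0.52 ± 0.23 (SD) that missed the limma threshold (adjusted p = 0.0931). *TP63* had -0.97, 0.03 and -1.03, so that siDONSON-2 stood apart from the other siRNAs, and its mean of -0.66 missed the threshold (limma adjusted p = 0.0954). Without the array of siDONSON-2, the mean of *TP63* was -1.0 and passed (limma adjusted p = 0.0179). *SOX2* was above 0 with each siRNA, at 0.45, 0.43 and 0.59, with a mean of 0.49 (limma adjusted p = 0.443) that turned to -0.22 with the other treatments subtracted. The 3 values were near each other, and the SE of that mean in the joint model, 0.37, pools the spread of *SOX2* in the other lines. *YAP1* had 0.17, -0.26 and -0.27, *REST* -0.25, 0.08 and 0.08 and *NKX2-1* 0.00, -0.54 and 0.50, each on both sides of 0.

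Of 14 pathway genes upstream or beside *YAP1*, limma called 3 higher and 0 lower, with a median log2 ratio of 0.07, against 875 higher and 722 lower of 26382 probes and a median of 0.03. They were *VGLL4*, a TEAD cofactor, at 0.91, 0.47 and 0.76 (mean 0.72, limma adjusted p = 0.0208), *STK3* (mean 0.57, limma adjusted p = 0.0309) and the scaffold *SAV1* (mean 0.48, limma adjusted p = 0.0312). Of 10 *YAP1* targets, 2 were higher and 0 lower, *F3* (mean 0.73, limma adjusted p = 0.0224) and *AMOTL2* (mean 0.52, limma adjusted p = 0.0392). All were higher with 3 of 3 siRNAs, and 0 of the 5 passed without siDONSON-1 or without siDONSON-3, where the highest adjusted p was 0.151. *SAV1* also missed without siDONSON-2 (adjusted p = 0.0599). *F3* missed with normexp and loess (mean 0.19, adjusted p = 0.136). With the other treatments subtracted, *SAV1*, above 0 on all 8 arrays, fell to a mean of 0.13 (adjusted p = 0.520), and *VGLL4* (0.44) and *AMOTL2* (0.31) missed the threshold too (adjusted p = 0.112 and 0.227). *KRT19* was the 1 called of 3 epithelial markers, at -1.30, -1.73 and -1.14 (mean -1.39, limma adjusted p = 0.00699). With the other treatments subtracted its mean was -0.35 and missed (adjusted p = 0.230), and with normexp and loess it was -0.29 and was called. Of 9 neuronal genes under *REST*, limma called 0 (median 0.16), with 2 at an unadjusted p under 0.05, and of 12 other lineage factors 0, with 4. Of 4 neuroendocrine and 2 squamous markers limma called 0 and 0, with 0 and 0 at an unadjusted p under 0.05.

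Under *miR-150-3p* in the LUSQ lines, limma called 0 of 5 tested members, against 3.35% of 25801 probes (864), and at an unadjusted p under 0.05 there were 0 members, against 27.5% of the probes. The arrays of the lines count here as 2 samples. Taken 1 array at a time, 1 of the 5 members was past a log2 ratio of 1 in EBC-1, against 12.1% of 27229 probes, and 0 of 5 in SK-MES-1, against 5.45% of 31387 probes.

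In EBC-1 the log2 ratio of *SOX2* was 1.32, and SK-MES-1 gave -0.92. Its signal went from 197 in the control to 491 after transfection in EBC-1, and from 88.2 to 46.5 in SK-MES-1. The directions were opposite, and each ratio was larger than the 95% limit of the error that the software gave it, 0.47 and 0.50. That error is of the spots and holds no spread between samples, of which each line had 1 per channel. The difference of 2.24 between the lines ran from 0.76 to 2.24 over 6 alternatives. It missed the limma threshold, and with 1 array per line that test took its spread from the SBC-3 and A549 arrays. In that comparison limma called 0 of 5 members and 0.718% of 25331 probes (182), and at an unadjusted p under 0.05 1 member, *SOX2*, against 15.6% of the probes. Without the SK-MES-1 array, the ratio of *SOX2* in EBC-1 passed the test of the treatment (limma adjusted p = 0.0446). Without the EBC-1 array, that in SK-MES-1 missed it (0.329).

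The other members had smaller ratios. *TP63* was at 0.38 and 0.25 (EBC-1, then SK-MES-1), *YAP1* at 0.30 and -0.15, *REST* at -0.16 and 0.037, and *FOXA2* at -0.41 and 0.073. Of these, *FOXA2* in EBC-1 lay just past its software limit of 0.41, and the others lay within theirs.

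**Figure D4:**
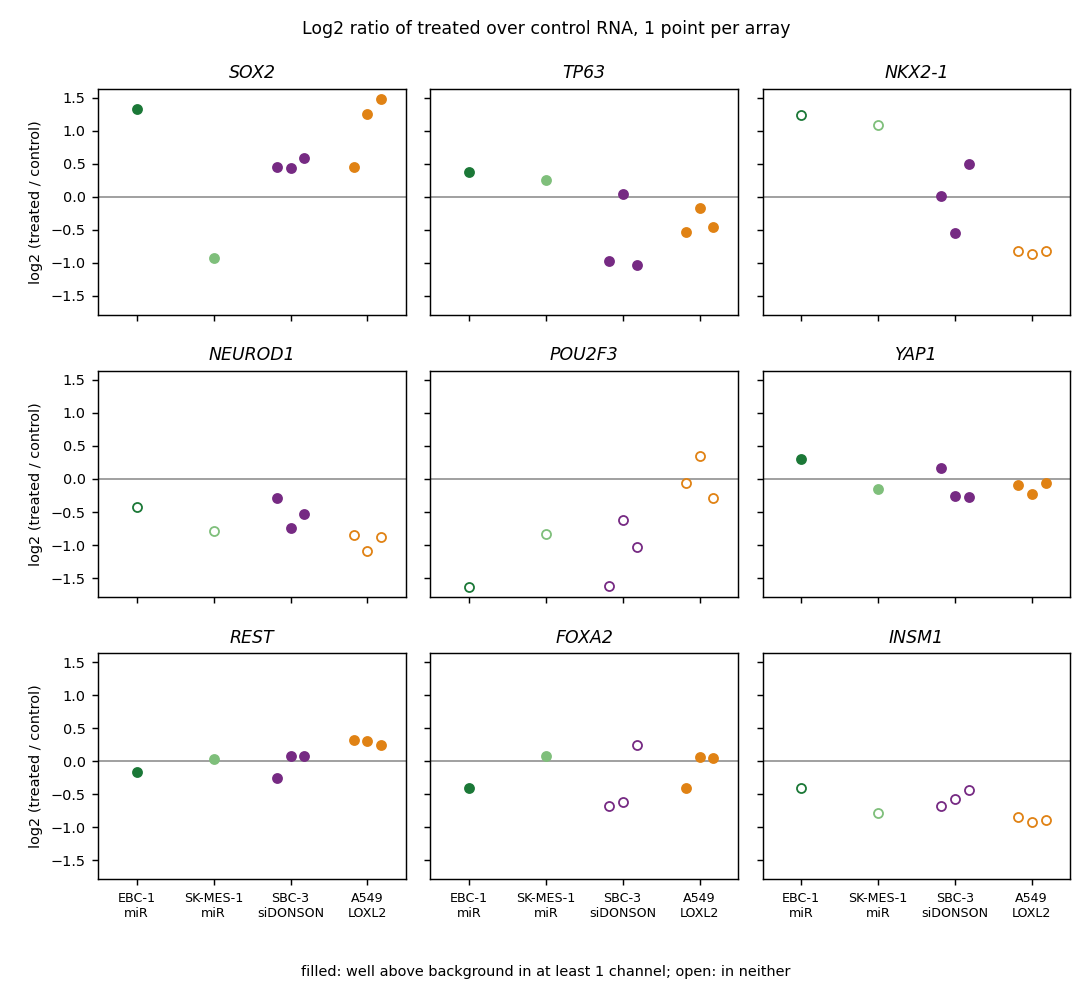
Log2 ratio of treated over control for the members on each array, by line and treatment, with filled points where either channel was well above background. *SOX2* is at 1.32 in EBC-1, below 0 in SK-MES-1 (-0.92) and above 0 on the other 6 arrays.

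Of 13 pathway genes, limma called 1 under *miR-150-3p*, lower, the Hippo regulator *NF2*, at -1.46 (EBC-1) and -0.80 (SK-MES-1, mean -1.13, adjusted p = 0.0238). Of 15 *YAP1* targets, limma called 0, against 427 higher and 437 lower of 25801 probes. At an unadjusted p under 0.05 there were 5 targets, against 27.5% of all probes. The median log2 ratio of the targets was 0.25, against 0.05 over all probes. *L1CAM*, a neural adhesion protein, was the 1 called of 5 neuronal genes under *REST*, higher (limma adjusted p = 0.0366), at 1.77 in EBC-1. In the marker lists, limma called the alveolar lipid transporter *ABCA3*, the basal keratin *KRT14* and the tuft cell protein *AVIL* higher, 1 gene of 8, of 2 and of 5 tested. Where the control was detected, their log2 ratios were 1.40 (EBC-1), 1.13 (SK-MES-1) and 1.30 (SK-MES-1). Apart from *NF2*, each was undetected in the control of the other line, so the size of the mean rise is uncertain. Without the EBC-1 array, none of these 5 genes passed, with limma adjusted p of 0.081 to 0.265, and without the SK-MES-1 array *AVIL* missed too (0.0994). With normexp and loess, *ABCA3*, *KRT14*, *AVIL* and *L1CAM* missed the threshold, at means of 0.58, 0.29, 0.20 and 0.22. With the other treatments subtracted *AVIL*, *L1CAM* and *NF2* missed it (limma adjusted p = 0.0887, 0.202 and 0.0508). Without a filter on dim probes each of these 5 genes missed it, at limma adjusted p of 0.0547 to 0.0593. Of 12 other lineage factors and of 10 *REST* corepressors and regulators, limma called 0 and 0, with 4 and 3 at an unadjusted p under 0.05.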

How the data were processed

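For each of 8 arrays the authors' Feature Extraction (12.1.1.1) output was read. The processed signals of both channels are in intensity units in the deposited files, background-subtracted, detrended and normalized between dyes within the array by the authors. The authors' table of the series holds the log10 ratio of red over green, and it matched the array files with a largest difference of 0. The number of arrays limits the precision.

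Control spots and spots marked as outliers were left out, and spots of a probe were averaged. Of 58201 probes, 31104 could be named, through RefSeq identifiers and for names only, since the array files name an older build. Ratios were kept on arrays where the software marked either channel of a probe well above background. Levels were normalized between arrays by Aquantile in limma 3.58.1 (R 4.3.3). Log2 ratios were fitted by limma in 1 model of 3 treatments on every array where the probe had a ratio (5 residual degrees of freedom with all 8, fewer otherwise), with each mean tested against 0, for probes with a ratio on every array of the treatment, and Benjamini-Hochberg adjustment over all of them at 0.05. The difference between EBC-1 and SK-MES-1 came from a model of 4 groups. Levels were compared without a test, as past 2-fold or not. The fit was tested on simulated data.

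All 9 members are given. A list gene is represented by its brightest tested probe. Of 100 list genes tested, 10 had probes of unlike sign, and 0 of these were called. Named list genes are those past the threshold with the largest mean ratio, at most 4 per list and treatment, and in levels those with the widest range. Some list genes count in the totals but are not reported here by name. Likeness genes are the 3 with the highest Pearson r. The members and lists were chosen with earlier results of these data known.

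The alternatives were normexp (offset 50) with loess, centring, both channels above background, no filter, outlier spots kept, the mean over a gene's probes, each treatment's arrays alone, subtraction of the other treatments, leaving out each array, 75th percentile or quantile scaling of Cy3, and limma on the Cy3 channels. The normexp alternative was planned on mean signals and used median signals, because the files hold no mean columns.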

Additional observations from a re-analysis of the deposited data

Results flagged for a closer look

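The log2 ratio of *SOX2* under *miR-150-3p* was 1.32 in EBC-1 but -0.92 in SK-MES-1, a difference of 2.24. The arrays of the lines thus gave opposite directions under the same transfection. The difference missed the limma threshold in the model of 4 groups. It was flagged for its values, and that test holds no spread of either line, so only its size is given. Each line has 1 array, and the lone array is assumed to vary like those of SBC-3 and A549. Over 6 alternatives, the difference ran from 0.76 to 2.24, and limma called it in 0 of them.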

How the results depend on the processing

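With normexp and loess, limma called 2 members under *LOXL2* editing, *SOX2* (adjusted p = 0.0142) and *REST* (0.0305), and the counts of probes called were 5430 for *LOXL2* editing, 2434 for the *DONSON* siRNAs, 2282 for *miR-150-3p* and 804 for the difference between the LUSQ lines. Over all 11 alternatives the adjusted p ran from 0.0142 to 0.438 for *SOX2* and from 0.0305 to 0.359 for *REST*. With normexp and loess, 12 member differences between lines were past 2-fold in place of 20, with pairs of *TP63*, *SOX2*, *NEUROD1* and *FOXA2* lost. The mean log2 ratios of *NKX2-1* and *REST* under the siRNAs changed sign, to 0.010 and 0.013.

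Without a filter, limma called 3 members under *LOXL2* editing (*INSM1*, *NEUROD1* and *NKX2-1*) and 3 under the siRNAs (*INSM1*, *POU2F3* and *NEUROD1*). Apart from *NEUROD1* in SBC-3, these were at background in both channels. The counts of probes called were 15794, 10267, 62 and 119 in the order above. With both channels above background they were 1596 for *miR-150-3p* and 423 for the difference. With the mean over a gene's probes, where genes are counted, they were 2229, 1043 and 295 (*LOXL2*, siRNAs, difference).

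With the arrays of a treatment fitted alone, limma called 1 member under *LOXL2* editing, *REST* (adjusted p = 0.0309), and 8406 probes. For the siRNAs and for *miR-150-3p* limma then called 0 probes, with 4748 and 3579 at unadjusted p under 0.05. With the other treatments subtracted, the counts were 1030, 906 and 251, and *SOX2* changed sign under the siRNAs (-0.22) and under *miR-150-3p* (-0.58). The cause was not tested.

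With 1 array left out, 521 to 741 probes were called under *LOXL2* editing, 112 to 1670 under the siRNAs and 0 to 3923 under *miR-150-3p* (limma; 3808 at unadjusted p under 0.05 where 0 were called), where a lone array is assumed to vary like the other groups. Limma called 1 member under the siRNAs without siDONSON-2 (*TP63*) and 1 under *miR-150-3p* without SK-MES-1 (*SOX2*); the other fits called 0, with 0 to 1 at unadjusted p under 0.05. The sign of a mean log2 ratio changed for *FOXA2* under *LOXL2* editing (-0.17 to 0.059, the last without A549-GE1), and under the siRNAs for *NKX2-1* (-0.27 to 0.25, the last without siDONSON-2) and *REST* (-0.089 to 0.078, the last without siDONSON-1). Under *miR-150-3p*, where each value is then that of 1 line, it changed without EBC-1 for *SOX2* (-0.92 to 1.32), *YAP1* (-0.15 to 0.30), *REST* (-0.16 to 0.037) and *FOXA2* (-0.41 to 0.073). None of these passed the limma test except *SOX2* in EBC-1 alone (adjusted p = 0.0446).

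Limma on the Cy3 channels of SBC-3 and A549, which covers the spread between hybridizations, called 7 of 7 members and 78.1% of 28891 probes. *SNAP25* and *EPCAM* passed under every alternative that gave a value for *LOXL2* editing, and *YAP1* and *FOXA2* under none of the alternatives of any treatment that tested them.

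No paired analysis was possible because the numbers 1 to 3 are shared by siRNAs in SBC-3 and edited samples in A549, which are different lines with no sample in common, and each array already carries its own control. Signal over background limits *TP63* and *NKX2-1*, whose ratios rest on signals near the detection limit, and *POU2F3* and *INSM1* could not be read at all.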
